A study of Mus musculus with 6 samples.

Results

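Genes of fatty acid oxidation, of the acyl-CoA thioesterases and synthetases that act around it, and of ketone body metabolism were compared between epithelium and mesenchyme of the small intestine of late mouse embryos. The group was a list of 42 genes chosen by name, with earlier results of these data known. A gene was counted as measured where the platform annotation gave at least 1 probe set that symbol alone. That held for 40 of the 42, read by 73 probe sets, among 18193 genes measured in all. Cpt1b, the carnitine palmitoyltransferase of muscle, was read only by a probe set that the annotation also gives to Chkb and Gm44502, and Acsl1 was not analysed here.

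The tissue came from C57BL/6 embryos at stage E18.5. Opened intestines were kept for 9 hours at 4 °C in a cell recovery solution, and the epithelium that came off was collected apart from the mesenchyme that remained. Each of the 3 epithelial and 3 mesenchymal Affymetrix arrays (A, B and C in each tissue) carried RNA of 1 pool from 3 embryos, after a selection among 6 pools per tissue by RT-PCR of marker genes. The epithelial group is thus a mixture of the cells that came off, and the mesenchymal group a mixture of those in the wall that remained.

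Fatty acids are activated to acyl-CoA by synthetases, carried into mitochondria as carnitine esters and shortened there by repeated rounds of dehydrogenation, hydration, dehydrogenation and thiolysis. Peroxisomes run a similar spiral for very long and branched chains, thioesterases release the free acid again, and ketone bodies are made from the resulting acetyl-CoA. Enterocytes of suckling rodents take up milk fat and are known to oxidise part of it, and PPARα, a nuclear receptor that binds fatty acids, drives many of these genes.

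Most of the measured genes were higher in the epithelium. At an adjusted p under 0.05 (limma, Benjamini-Hochberg over all genes) and at least a 2-fold difference, which is what "called" means below, 28 of the 40 genes were higher in the epithelium (70%), against 8.19% of all genes. For the mesenchyme the count was 3 (7.5%), against 15.9% of all genes. Either way, 31 genes were called, against 24.1% of all genes. The median difference over the 40 genes was 1.23 on the log2 scale, against -0.17 over all genes. Since the list was chosen with earlier results of these data known, these comparisons describe the list and do not test it. The largest deposited difference toward the epithelium was that of Ehhadh, a bifunctional enzyme of peroxisomes (4.60 ± 0.25, a log2 difference with its limma standard error, 3 arrays per tissue, as below), and the largest in the mesenchyme that of Acsl4, a synthetase preferring arachidonate (-2.93 ± 0.28). In 4 genes the lower tissue averaged below 7.91, the 95th percentile of 15 control probe sets for bacterial transcripts, which is taken as background here: Ehhadh, Acaa1b and Acot4 in the mesenchyme and Acsl4 in the epithelium. Their differences are given as deposited, and the fold only as a lower bound, with dim arrays raised to that percentile. With these genes at their bounds, the median difference of the 40 was 1.22. Calls use the deposited differences, so Acaa1b counts among the 28 although its lower bound, 1.28-fold, is under 2-fold. At least an 8-fold excess in the epithelium was reached by 4 genes (Ehhadh, Acot1, Acot3 and Acsl5), against 1.73% of all genes. In these bulk samples, fewer cells of a type and less RNA per cell cannot be told apart.

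**Figure D1:**
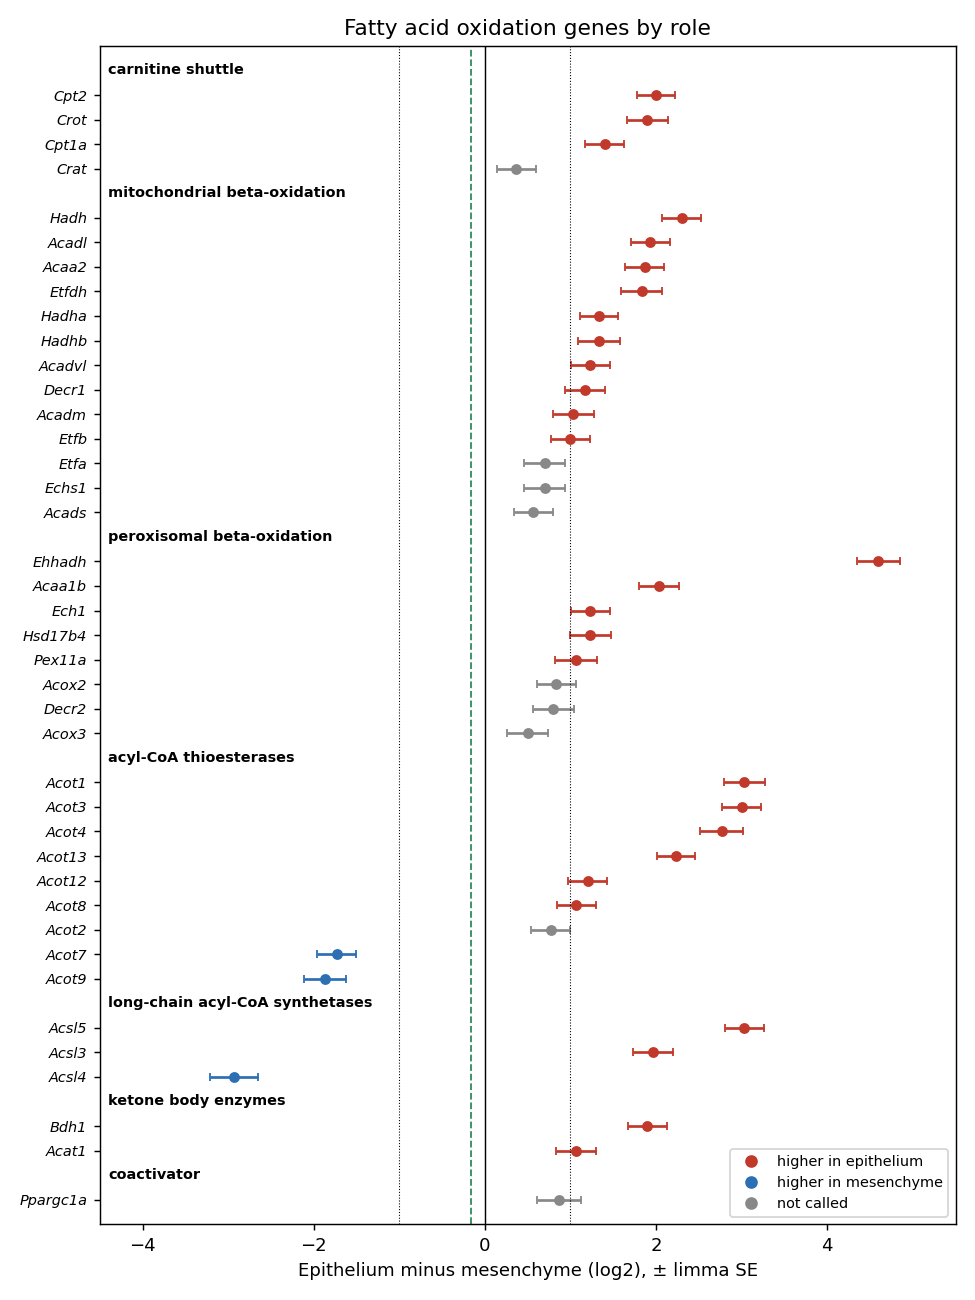
Difference between epithelium and mesenchyme (log2, horizontal axis) for the 40 measured genes, ordered by role, with bars of 1 limma standard error. Dotted lines mark a 2-fold difference and the dashed line the median over all genes (-0.17), and the 3 genes to the left of zero are Acsl4, Acot9 and Acot7.

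Without overlap between the arrays of the tissues, 35 genes lay above the mesenchyme, against 16% of all genes, and 3 lay below it, against 30.5%. The 2 genes with overlapping arrays were Crat and Acox3. Of the 9 genes not called, 7 had an adjusted p under 0.05 with less than a 2-fold difference, and the differences of all 9 were positive.

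The arrays themselves differed in ways that touch these values. The median over all probe sets was 8.1, 8.6 and 8.3 in epithelium A, B and C, against 8.7, 8.5 and 8.7 in mesenchyme A, B and C. The median level of the 40 genes was 11.6, 12.3 and 11.55 in the same epithelial arrays, against 10.5, 10.45 and 10.4 for the mesenchyme, so that the epithelial arrays lay above the mesenchymal ones although their overall medians were lower or similar. Epithelium B was the highest epithelial array, or tied for it, in 38 of the 40 genes. Other scalings of the arrays moved the median of all genes by -0.26 to 0.32, and the share of mesenchymal calls among all called genes, 66.0% as deposited, ranged from 48.7% to 77.5%. The mean of the spike-in controls was lowest on mesenchyme B (9.80), while the remaining arrays had 10.56 to 10.77.

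Markers of the labelled tissues went with their labels. The 5 enterocyte markers were all higher in the epithelium, with Vil1 at 13.37 ± 0.21 there and 8.67 ± 0.55 in the mesenchyme (SD, n = 3 each), and the 8 smooth muscle and fibroblast markers were all higher in the mesenchyme. In the mesenchyme, 4 enterocyte markers were above the control percentile, and their mesenchymal signal was 3.85% to 13.7% of the epithelial signal on the linear scale. The fifth, Cdh1, had at most 2.66%. The upper end was that of Cdx2, at 7.9, 7.9 and 8.3 in the mesenchyme and so close to the percentile. The next marker, Fabp2, had 10.4%. Of the 25 genes higher in the epithelium and above the percentile in the mesenchyme, the shares spanned 12.2% to 50%. Acot1 (12.2%), Acsl5 (12.2%) and Acot3 (12.5%), 3 of the 25, lay in the marker range, but only through Cdx2, and none lay as low as Fabp2. For Ehhadh the share was at most 8.50%. The part of enterocyte RNA in the mesenchymal signal of these genes was not tested.

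Of 5 hepatocyte markers, Serpina1b and Fga were higher in the epithelium, while albumin (Alb) averaged 8.87 in epithelial and 8.80 in mesenchymal arrays, and Ahsg 8.03 in both. The summed linear signal of the 5 was 3475 to 5644 in the epithelial arrays and 1279 to 1875 in the mesenchymal arrays. Among 6 measured adipocyte markers, the lipid droplet gene Cidec was higher in the epithelium, and Adipoq, which defines fat cells, averaged 6.10 in epithelial and 6.50 in mesenchymal arrays, below the control percentile. Their summed signal was 2434 to 3197 in the epithelial arrays and 1672 to 1832 in the mesenchymal arrays. Of 4 measured pancreatic acinar markers, Cela1 was higher in the epithelium, and their summed signal was 3470 to 4545 in the epithelial arrays and 2084 to 3054 in the mesenchymal arrays. The part of liver, fat or pancreas RNA in the results was not tested.

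Values below are log2 levels on arrays A, B and C, and levels of different genes are not compared, since each probe set has its own response. The carnitine shuttle was examined first. Cpt1a, the outer membrane enzyme that commits long chains to mitochondrial entry, was at 12.0, 12.5 and 12.0 in the epithelium, against 10.8, 10.8 and 10.7 in the mesenchyme. Cpt2, which frees the acyl group again on the inner membrane, was at 12.1, 12.4 and 12.3 in the epithelium, against 10.4, 10.1 and 10.3 in the mesenchyme. Both were higher in every epithelial array than in any mesenchymal array, by 1.40 ± 0.23 for Cpt1a (adjusted p = 3.66e-06) and by 2.00 ± 0.23 for Cpt2 (adjusted p = 1.94e-09) in limma. The other probe sets of Cpt1a differed by 2.23 and 2.40 and were called, and the other one of Cpt2 by 0.37 and was not.

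Crot, the peroxisomal carnitine octanoyltransferase that passes shortened chains on, was at 11.5, 12.2 and 11.5 in the epithelium, against 10.1, 9.7 and 9.7 in the mesenchyme, a difference of 1.90 ± 0.24 (limma, adjusted p = 2.24e-08). This call rested on the brighter of its probe sets, since the other differed by -0.03 and the mean of both by 0.93. Crat, which makes acetylcarnitine, was at 11.1, 11.4 and 11.4 in the epithelium, against 10.7, 11.0 and 11.1 in the mesenchyme, and the tissues overlapped (0.37 ± 0.23, limma, adjusted p = 0.213). Its other probe sets differed by 1.07, which was called, and by -0.03. The probe set shared by Cpt1b with Chkb and Gm44502 was at 7.8, 8.1 and 7.7 in the epithelium, against 7.4, 7.2 and 7.8 in the mesenchyme and was not called (0.40 ± 0.23).

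**Figure D2:**
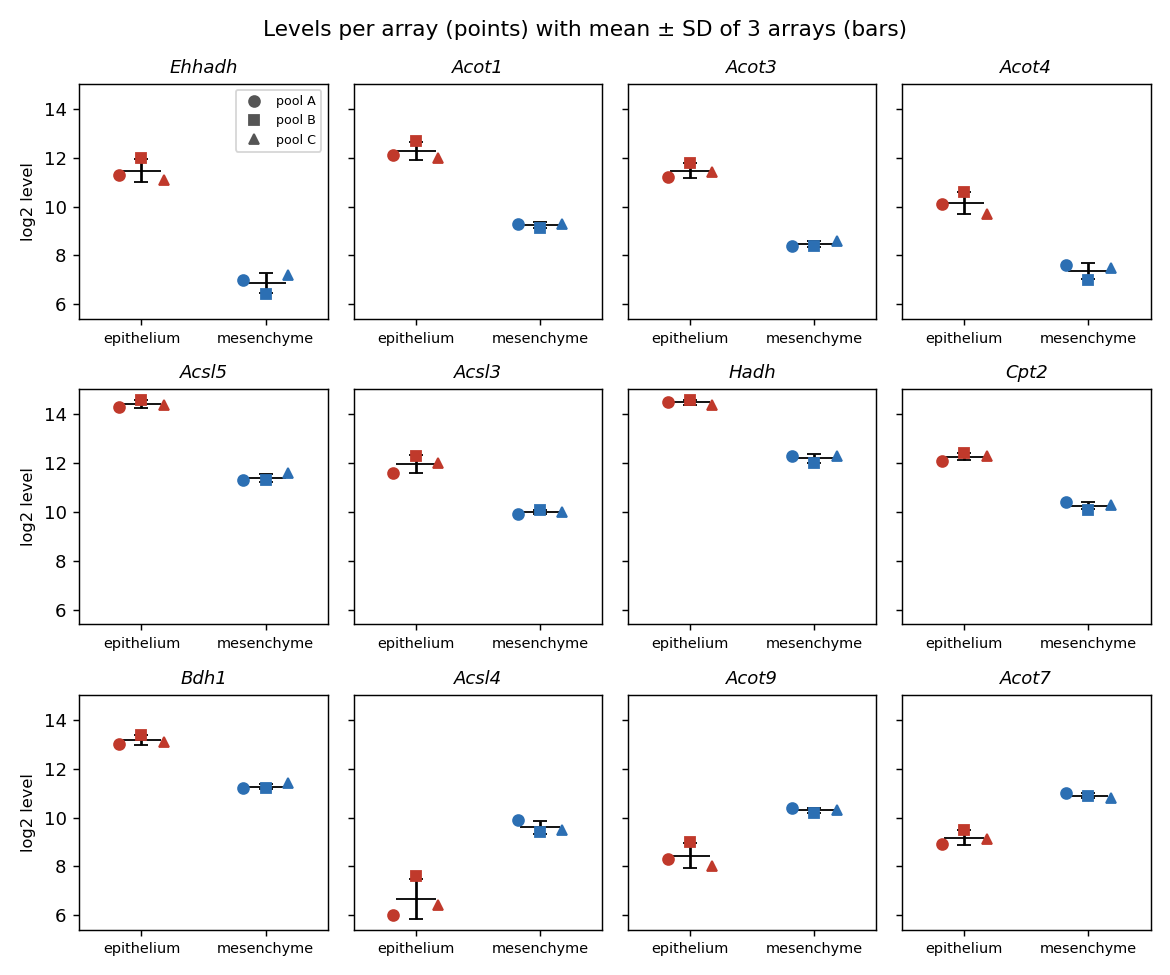
Log2 level (vertical axis) of 12 genes on each array, epithelium left and mesenchyme right, with pools A, B and C as circles, squares and triangles and bars for the mean and SD of 3 arrays. No panel shows overlap between the tissues, and Acsl4, Acot9 and Acot7 are the 3 that stand lower in the epithelium.

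All 13 mitochondrial genes from the acyl-CoA dehydrogenases to electron transfer were above the mesenchyme in every epithelial array, and 10 were called. Their differences ranged from 0.57 to 2.30 with a median of 1.23. Acadvl, Acadl, Acadm and Acads encode the dehydrogenases for very long, long, medium and short chains. Acadl, at 13.0, 13.5 and 13.2 in the epithelium, against 11.4, 11.3 and 11.2 in the mesenchyme, differed by 1.93 ± 0.23 (limma, adjusted p = 5.16e-09). Its dimmer probe set differed by 0.33 and was not called. Acadvl was at 12.1, 12.6 and 12.2 in the epithelium, against 11.1, 11.1 and 11.0 in the mesenchyme (1.23 ± 0.23). Acadm was at 11.7, 12.4 and 11.9 in the epithelium, against 11.2, 10.9 and 10.8 in the mesenchyme (1.03 ± 0.24), so that both stood clear of the mesenchymal arrays. Acads, at 11.1, 11.4 and 11.0 in the epithelium, against 10.6, 10.7 and 10.5 in the mesenchyme, did not reach a 2-fold difference (0.57 ± 0.23, limma, adjusted p = 0.0433).

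Hadh, the hydroxyacyl-CoA dehydrogenase for short and medium chains, had the largest difference among these 13 genes. It was at 14.5, 14.6 and 14.4 in the epithelium, against 12.3, 12.0 and 12.3 in the mesenchyme, and all 3 of its probe sets were called, with differences of 2.30 to 2.57. Acaa2, the thiolase that closes the mitochondrial round, was at 13.4, 13.7 and 13.4 in the epithelium, against 11.8, 11.6 and 11.5 in the mesenchyme. Its 3 probe sets differed by 1.87 to 2.73 and all were called. Echs1, the hydratase for short chains, stood at 11.9, 12.3 and 11.5 in the epithelium, against 11.4, 11.0 and 11.2 in the mesenchyme, a difference under 2-fold (0.70 ± 0.24, limma, adjusted p = 0.0169).

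Hadha and Hadhb encode the subunits of the mitochondrial trifunctional protein, which carries out the last steps on long chains. Hadha was at 12.5, 12.9 and 12.7 in the epithelium, against 11.4, 11.4 and 11.3 in the mesenchyme. Hadhb was at 12.5, 13.1 and 12.7 in the epithelium, against 11.9, 11.1 and 11.3 in the mesenchyme. Both subunits were called, at 1.33 ± 0.23 for Hadha and 1.33 ± 0.24 for the brightest probe set of Hadhb (limma, adjusted p = 6.41e-06 and 2.17e-05). A second probe set of Hadhb, at 12.7, 13.0 and 12.7 in the epithelium, against 11.1, 11.0 and 11.2 in the mesenchyme, was called at 1.70 ± 0.23. A dimmer one differed by 0.27 and was not called.

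The genes are neighbours on chromosome 5 and run in opposite directions from a common region, which is shown because the subunits, both called higher in the epithelium, share it. The RefSeq promoter window of Hadha (GRCm38.p6, chr5:30154931-30155230, minus strand, 250 bases before to 50 after the start) shares 228 bases with that of Hadhb (chr5:30155003-30155302, plus strand). Capitals mark the shared bases, read here on the Hadha strand.
Hadha: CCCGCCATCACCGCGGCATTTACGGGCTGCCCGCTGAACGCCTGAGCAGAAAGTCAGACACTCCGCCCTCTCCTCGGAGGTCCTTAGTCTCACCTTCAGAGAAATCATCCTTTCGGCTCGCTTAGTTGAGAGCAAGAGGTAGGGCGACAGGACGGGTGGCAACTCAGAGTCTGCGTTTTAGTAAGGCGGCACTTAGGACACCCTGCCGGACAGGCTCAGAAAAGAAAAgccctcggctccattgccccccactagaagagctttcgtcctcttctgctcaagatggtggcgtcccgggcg

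Electrons from the dehydrogenases pass to the flavoprotein ETF, encoded by Etfa and Etfb, and from it through Etfdh to ubiquinone. Etfdh was at 11.6, 12.3 and 11.5 in the epithelium, against 10.1, 9.9 and 9.9 in the mesenchyme (1.83 ± 0.24, limma, adjusted p = 4.37e-08). A dim probe set of Etfdh, at 5.5 to 5.9 in all arrays, differed by 0.07, and the mean of both by 0.95. Etfb, at 12.7, 13.0 and 12.6 in the epithelium, against 11.9, 11.8 and 11.6 in the mesenchyme, lay on the 2-fold threshold (1.00 ± 0.23). Etfa, its partner, was at 12.2, 12.9 and 12.2 in the epithelium, against 11.9, 11.5 and 11.8 in the mesenchyme, and was not called (0.70 ± 0.24). The auxiliary enzyme Decr1, a dienoyl-CoA reductase for unsaturated chains, was at 12.0, 12.5 and 12.0 in the epithelium, against 11.2, 11.0 and 10.8 in the mesenchyme (1.17 ± 0.23). Its other probe set differed by 0.80 and the mean of both by 0.98, under 2-fold. The calls of genes near 2-fold depended on the scaling. With arrays centred on the spike-in controls, the differences of Acadvl (0.97), Acadm (0.77), Decr1 (0.91) and Etfb (0.74) were below 2-fold. With spike-in centring and mesenchyme B left out, an alternative added after seeing the data, 1 listed gene lost its call, Pex11a (0.86), in place of 10. Pex11a also lost its call without mesenchyme B on the deposited scale. No other array was left out under this centring. The difference of Etfb was also below 2-fold after quantile normalization (0.91). Those of Acadm and Etfb were below it without epithelium B (0.83 and 0.88) or mesenchyme C (0.95 and 0.92).

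Of 8 peroxisomal genes, 5 were called higher in the epithelium and none in the mesenchyme, and the differences ranged from 0.50 to 4.60. Ehhadh, which hydrates and dehydrogenates in the branch that also makes dicarboxylic acids, was at 11.3, 12.0 and 11.1 in the epithelium, against 7.0, 6.4 and 7.2 in the mesenchyme. The gap between the lowest epithelial and the highest mesenchymal array was wider than the spread within either tissue (SD 0.47 and 0.42). Since all 3 mesenchymal arrays lay below the control percentile, Ehhadh was at least 11.8-fold higher in the epithelium (limma, adjusted p = 1.06e-17). Hsd17b4, the other bifunctional enzyme, which serves very long and branched chains, was at 11.7, 12.5 and 12.4 in the epithelium, against 11.2, 10.7 and 11.0 in the mesenchyme (1.23 ± 0.24). Its second probe set differed by 0.43, so that the call ended in their mean (0.83), when probe sets prone to read related sequences were avoided, and under spike-in centring (0.97).

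Acaa1b, a thiolase of mouse peroxisomes, was at 7.9, 8.6 and 8.3 in the epithelium, against 6.2, 6.3 and 6.2 in the mesenchyme (2.03 ± 0.23, limma, adjusted p = 2.54e-09). With the mesenchyme below the control percentile and the epithelium close to it, the lower bound was 1.28-fold. The paralog Acaa1a, outside the 42 genes and named here after its values were seen, differed by 0.07 ± 0.23, a sign that turned in 2 alternatives, with 11.53 ± 0.15 in the epithelium and 11.47 ± 0.06 in the mesenchyme (SD, n = 3 each). A dimmer probe set of Acaa1a differed by 0.70 and was not called. Both probe sets that read Acaa1a and Acaa1b together also differed by 0.07.

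Ech1, a dienoyl-CoA isomerase found in peroxisomes and mitochondria, was at 12.6, 13.0 and 12.6 in the epithelium and at 11.5 in all 3 mesenchymal arrays (1.23 ± 0.23). Pex11a, which promotes peroxisome division, was at 9.3, 9.7 and 9.9 in the epithelium, against 8.6, 8.1 and 9.0 in the mesenchyme (1.07 ± 0.25), with 1.17 by its other probe set, whose mesenchymal mean lay below the control percentile. The call of Ech1 ended under spike-in centring (0.97). That of Pex11a ended there (0.81), with array weights (0.89) and without epithelium C (0.93) or mesenchyme B (0.83). The oxidases Acox2 (0.83 ± 0.23) and Acox3 (0.50 ± 0.24), which act on branched chains, and the reductase Decr2 (0.80 ± 0.24) were not called.

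The acyl-CoA thioesterases went both ways, with 6 of 9 called above the mesenchyme and 2 below it. Acot1, a cytosolic enzyme induced by PPARα, was at 12.1, 12.7 and 12.0 in the epithelium, against 9.3, 9.1 and 9.3 in the mesenchyme (3.03 ± 0.24, limma, adjusted p = 1.42e-13). Acot3, a peroxisomal enzyme, was at 11.2, 11.8 and 11.4 in the epithelium, against 8.4, 8.4 and 8.6 in the mesenchyme (3.00 ± 0.23). Acot4, peroxisomal too, was at 10.1, 10.6 and 9.7 in the epithelium, against 7.6, 7.0 and 7.5 in the mesenchyme (2.77 ± 0.25), and its second probe set differed by 2.40. Its mesenchymal levels lay below the control percentile, so that Acot4 was at least 4.67-fold higher in the epithelium by the brighter probe set. In the deposited values, no array of the epithelium came within 2-fold of a mesenchymal one for these genes.

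Acot2, the mitochondrial member of the same subfamily, stood at 10.6, 11.0 and 11.0 in the epithelium, against 9.9, 10.1 and 10.3 in the mesenchyme, without overlap but under 2-fold (0.77 ± 0.23, limma, adjusted p = 0.00672). A probe set that reads Acot1 and Acot2 together differed by 2.17. These paralogs are close in sequence, and the single probe set of Acot3 carries a suffix given to sets that read related transcripts; how far they read each other was not tested.

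Acot2, Acot1, Acot4, Acot3, Acot5 and Acot6 follow each other in this order on chromosome 12 with no other protein-coding gene between them in RefSeq. Acot5 (1.13 ± 0.26) and Acot6 (1.33 ± 0.28), from the wider list of the pathway and singled out after their values were seen, were also called higher in the epithelium, Acot5 at levels of 6.87 and 5.73 that lie below the control percentile. The call of Acot5 ended under spike-in centring (0.87) and without epithelium B. None of the 3 genes on either side was called, and their differences ran from -0.73 (Mideas) to 0.80 (Pnma1).

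**Figure D3:**
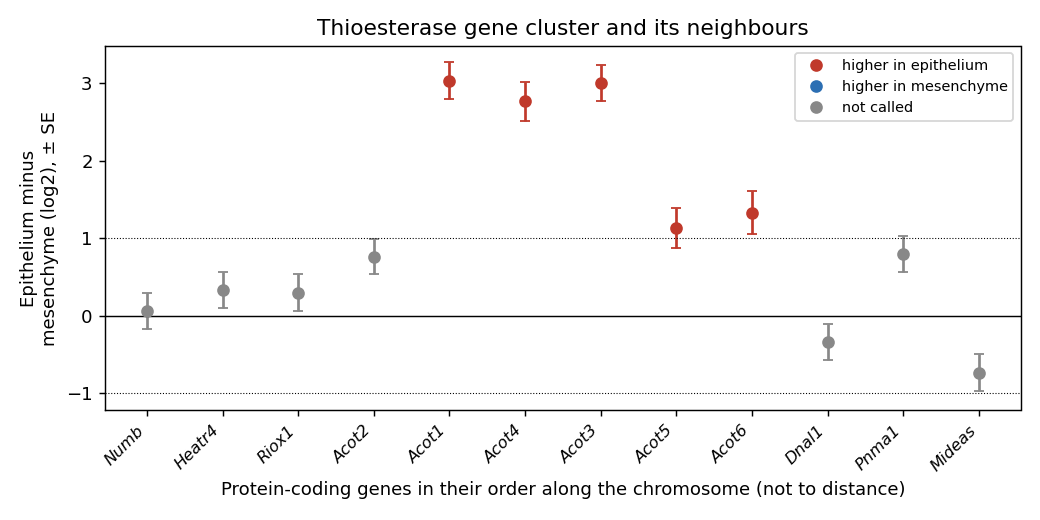
Difference between epithelium and mesenchyme (log2, vertical axis, ± 1 limma standard error) for the thioesterase cluster and the 3 protein-coding genes on either side, in chromosomal order and not to distance. Acot1, Acot4 and Acot3 stand near 3, Acot2 at 0.77, and the flanking genes between -0.73 and 0.80.

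The promoter windows of the 4 listed genes of the cluster are shown because Acot2 differed less than its neighbours. All are from RefSeq (GRCm38.p6, plus strand, 250 bases before to 50 after the start), at chr12:83987611-83987910 for Acot2, chr12:84009252-84009551 for Acot1, chr12:84038129-84038428 for Acot4 and chr12:84051894-84052193 for Acot3. Capitals mark, on either strand, CCAAT, the nuclear receptor half-site AGGTCA, and a loose direct repeat (GGNCA, any base, A, GGNCA), a form of the repeat that PPARs bind. The loose repeat can overlap AGGTCA.
Acot2: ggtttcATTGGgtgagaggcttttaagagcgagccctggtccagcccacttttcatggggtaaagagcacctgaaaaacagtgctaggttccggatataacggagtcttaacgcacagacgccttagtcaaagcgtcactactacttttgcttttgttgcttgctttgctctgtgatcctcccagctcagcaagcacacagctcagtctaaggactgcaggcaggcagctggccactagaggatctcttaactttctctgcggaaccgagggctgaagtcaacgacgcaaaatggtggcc
Acot1: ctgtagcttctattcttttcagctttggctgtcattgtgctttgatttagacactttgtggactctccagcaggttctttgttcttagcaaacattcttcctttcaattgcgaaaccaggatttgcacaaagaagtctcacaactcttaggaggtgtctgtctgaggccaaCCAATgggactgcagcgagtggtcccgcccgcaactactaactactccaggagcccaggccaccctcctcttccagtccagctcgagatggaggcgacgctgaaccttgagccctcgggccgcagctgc
Acot4: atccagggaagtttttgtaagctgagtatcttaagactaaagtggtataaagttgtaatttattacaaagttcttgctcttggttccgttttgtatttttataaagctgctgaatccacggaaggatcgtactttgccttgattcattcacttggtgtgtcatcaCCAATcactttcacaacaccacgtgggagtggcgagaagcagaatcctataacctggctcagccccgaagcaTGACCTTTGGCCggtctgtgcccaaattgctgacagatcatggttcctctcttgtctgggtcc
Acot3: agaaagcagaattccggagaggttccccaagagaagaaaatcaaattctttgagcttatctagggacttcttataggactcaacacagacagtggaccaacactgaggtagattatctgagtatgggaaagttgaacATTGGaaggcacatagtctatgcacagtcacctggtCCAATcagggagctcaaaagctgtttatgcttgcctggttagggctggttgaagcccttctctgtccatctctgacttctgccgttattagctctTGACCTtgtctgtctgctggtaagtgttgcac

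CCAAT occurs in all 4 windows and in 41.1% of all genes' windows, and AGGTCA in those of Acot4 and Acot3 and in 18.1%. The loose repeat occurs in the window of Acot4, 1 base before the start, and in 0.932% of all genes. Over the list, 35 of 42 genes had a window. AGGTCA was in 7 of these (20%), the loose repeat in 2 (Acot4 and Acox2), and AGGTCA repeated after any 1 base in none (0.0481% of all genes). CCAAT was in 18 (51.4%), TATAAA in 2 (5.71%, against 15.7% of all genes), and the GC box GGGCGG in 25 (71.4%, against 38.2%). Those 25 include Acot7, Acot9 and Acsl4, which were higher in the mesenchyme, and Acsl1, whose expression was not analysed. A match is a description of these letters only.

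Acot13, a thioesterase associated with mitochondria, was at 11.6, 11.8 and 11.6 in the epithelium, against 9.6, 9.2 and 9.5 in the mesenchyme (2.23 ± 0.23, limma, adjusted p = 1.54e-10). Acot8, of peroxisomes, was at 10.5, 10.9 and 10.7 in the epithelium, against 9.7, 9.6 and 9.6 in the mesenchyme (1.07 ± 0.23). That call was lost under spike-in centring (0.81) and without epithelium B (0.97). Acot12, a cytosolic acetyl-CoA hydrolase, was at 10.2, 10.7 and 10.4 in the epithelium, against 9.0, 9.3 and 9.4 in the mesenchyme by its brightest probe set (1.20 ± 0.23, and 0.94 under spike-in centring). Its probe sets disagreed in size, with 3.13 for a dimmer one (8.0, 9.6 and 8.3 in the epithelium, against 5.1, 5.9 and 5.5 in the mesenchyme, where it lay below the control percentile) and 0.10 for another.

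The thioesterases higher in the mesenchyme were Acot7 and Acot9. Acot7, a cytosolic enzyme abundant in brain, was at 8.9, 9.5 and 9.1 in the epithelium, against 11.0, 10.9 and 10.8 in the mesenchyme (-1.73 ± 0.23, limma, adjusted p = 6.99e-08). Acot9, a mitochondrial enzyme, was at 8.3, 9.0 and 8.0 in the epithelium, against 10.4, 10.2 and 10.3 in the mesenchyme (-1.87 ± 0.24, limma, adjusted p = 4.79e-08), and a probe set that reads Acot9 and Acot10 together differed by -1.70. The highest epithelial array of each gene lay below the lowest mesenchymal one. Among 3 measured markers of neurons and glia, Elavl4 was higher in the mesenchyme, and Ret and Sox10 were not called. Their summed signal was 1640 to 2041 in the epithelial arrays and 3800 to 4280 in the mesenchymal arrays, and its part in the level of Acot7 was not tested.

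The 3 measured long-chain acyl-CoA synthetases were divided between the tissues, and all were called. Acsl5, known as an abundant isoform of enterocytes, was at 14.3, 14.6 and 14.4 in the epithelium, against 11.3, 11.3 and 11.6 in the mesenchyme (3.03 ± 0.23, limma, adjusted p = 5.35e-14). Acsl3, an isoform of the endoplasmic reticulum and lipid droplets, was at 11.6, 12.3 and 12.0 in the epithelium, against 9.9, 10.1 and 10.0 in the mesenchyme (1.97 ± 0.23), with 2.10 and 0.67 by its other probe sets. Acsl4 was at 6.0, 7.6 and 6.4 in the epithelium, against 9.9, 9.4 and 9.5 in the mesenchyme (limma, adjusted p = 2.96e-11). Epithelium B was the highest epithelial array for Acsl4, and the difference was -3.40 without it. The epithelial levels lay below the control percentile, so that Acsl4 was at least 3.23-fold lower in the epithelium. All 3 probe sets of Acsl4 were lower in the epithelium, by -2.93, -1.90 and -0.80, the last of them not called. Markers of other cells were higher in the mesenchyme beside Acsl4, Acot9 and Acot7. All 4 endothelial markers were called, with summed signals of 623 to 851 in the epithelial arrays and 12176 to 15478 in the mesenchymal arrays. So were 3 of 4 leukocyte markers, Ptprc, C1qb and Cd52, at least 7.41-fold, 18.7-fold and 8.71-fold higher in the mesenchyme. Their epithelial means lay below the control percentile. The 4 leukocyte markers summed to 11155 to 14719 in the epithelial arrays and 17001 to 18221 in the mesenchymal arrays. Most of the epithelial sum came from the fourth, Csf1r, which was not called. By the brightest of its 3 probe sets, the only one used for the sum, Csf1r was at 13.4, 13.8 and 13.5 in the epithelium. In the mesenchyme it was at 13.2, 13.1 and 13.2. Whether this probe set reads Csf1r alone was not tested. Of the 5 striated muscle markers 2 were called, with 1691 to 1871 in the epithelial arrays and 3211 to 3473 in the mesenchymal arrays. The 4 smooth muscle markers summed to 1071 to 1522 in the epithelial arrays and 58279 to 62261 in the mesenchymal arrays, and the 4 fibroblast markers to 507 to 709 in the epithelial arrays and 65284 to 69960 in the mesenchymal arrays. The part of these cells in the levels of the 3 genes, and of Oxct1 given further on, was not tested.

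Both listed ketone body enzymes were higher in the epithelium. Bdh1, which interconverts acetoacetate and hydroxybutyrate, was at 13.0, 13.4 and 13.1 in the epithelium, against 11.2, 11.2 and 11.4 in the mesenchyme (1.90 ± 0.23, limma, adjusted p = 6.68e-09), and its other probe set differed by 2.80. Acat1, the mitochondrial acetoacetyl-CoA thiolase of both synthesis and use, was at 12.9, 13.5 and 13.0 in the epithelium, against 12.2, 12.0 and 12.0 in the mesenchyme. Its 3 probe sets differed by 1.07 to 1.23 and all were called, but the gene fell under 2-fold after quantile normalization (0.95), under spike-in centring (0.81) and without epithelium B (0.88).

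Ppargc1a, a coactivator of mitochondrial and oxidation genes, was read by 5 probe sets. The brightest was at 8.6, 9.7 and 8.5 in the epithelium, against 8.3, 8.1 and 7.8 in the mesenchyme and was not called (0.87 ± 0.26, limma, adjusted p = 0.00699). Another, at 8.2, 9.6 and 9.3 in the epithelium, against 8.0, 7.5 and 7.4 in the mesenchyme, was called (1.40, with the mesenchymal mean below the control percentile), and the remaining 3 differed by 0.27 to 0.93. Epithelium B was the highest epithelial array in all of them, and the difference was 0.48 without that array. The gene was called after quantile normalization (1.21) or cyclic loess (1.11), with equal array medians (1.17), with ribosomal centring (1.19), with no fold threshold, and without epithelium A (1.03) or C (1.08).

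Probe sets of the same gene often differed in size but rarely in direction. Of 73 probe sets, 44 were called with the epithelium higher (60.3%, against 5.98% of all probe sets) and 4 with the mesenchyme higher (5.48%, against 15.5%). Of 21 genes with several probe sets, 7 had every probe set called in the same direction, 12 had called and uncalled ones, and 2 (Acox3 and Acot2) had none called. None had probe sets called in opposite directions. The widest ranges were those of Acot12 (0.10 to 3.13), Acsl4 (-2.93 to -0.80) and Crot (-0.03 to 1.90).

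**Figure D4:**
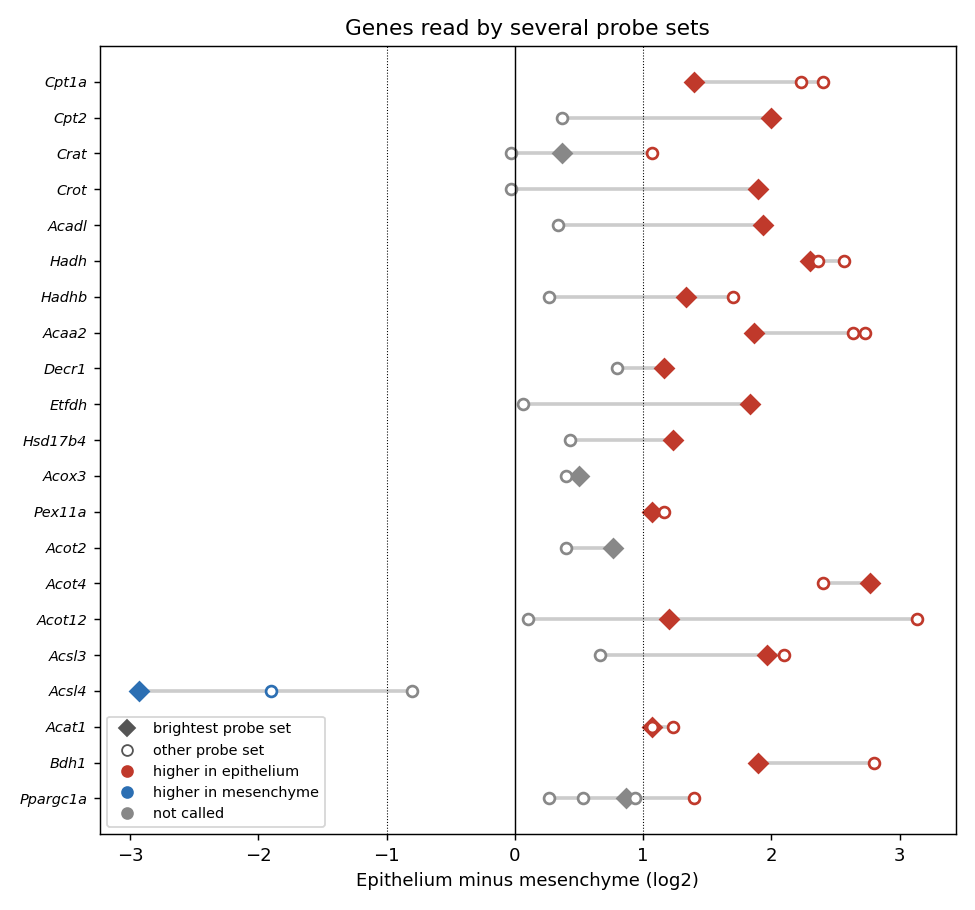
Difference between epithelium and mesenchyme (log2, horizontal axis) for each probe set of the 21 genes read by several, with a filled diamond for the brightest probe set and open circles for the others. Grey lines span each gene's probe sets, dotted lines mark a 2-fold difference, and the 2 open circles just left of zero belong to Crat and Crot (-0.03 each).

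A wider list of 82 other genes of these pathways, of which 69 were measured, had 25 called with the epithelium higher (36.2%) and 2 with the mesenchyme higher (2.90%), against the same 8.19% and 15.9% of all genes. Its median difference was 0.43. This list, too, was chosen with earlier results of these data known. Of 13 measured genes listed as peroxisomal, 7 were higher in the epithelium. Of 11 listed as mitochondrial, 5 were, namely Slc25a20, Eci1, Eci2, Eci3 and Acad11. These classes are those of the list, and the site of each product was not measured. Of 15 other acyl-CoA synthetases 2 were higher there, and of 6 other thioesterases 3. Of 17 regulators and PPAR targets, 6 were higher in the epithelium, 1 was higher in the mesenchyme and 10 were not called.

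The 8 largest excesses in the epithelium, with a tie for the last place, began with Slc16a6, a monocarboxylate carrier needed for ketone body export from the liver in zebrafish. It was at 9.9, 10.8 and 10.9 in the epithelium, against 6.9, 7.0 and 6.7 in the mesenchyme (3.67 ± 0.25, limma, adjusted p = 3.45e-15), and at least 6.16-fold higher in the epithelium, since its mesenchymal level lay below the control percentile. The others were the fatty acid transport protein Slc27a4 (2.63 ± 0.23), the acyl-CoA dehydrogenase Acad11 (2.37 ± 0.25), the nuclear receptor Esrra (2.37 ± 0.23), the phytanoyl-CoA hydroxylase Phyh (2.23 ± 0.23), the lipid droplet protein Plin2 (2.17 ± 0.23), the sterol carrier and thiolase gene Scp2 (2.07 ± 0.23), and, tied, Ppara (2.00 ± 0.23) and the peroxisomal enoyl-CoA reductase Pecr (2.00 ± 0.23). Slc25a20, which exchanges acylcarnitine across the inner mitochondrial membrane and is named after its value was seen, differed by 1.60 ± 0.23.

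The genes higher in the mesenchyme were Oxct1 and Cpt1c. Oxct1, which activates acetoacetate for oxidation outside the liver, was at 9.1, 10.1 and 9.5 in the epithelium, against 12.2, 11.9 and 11.9 in the mesenchyme (-2.43 ± 0.25, limma, adjusted p = 1.20e-10). All 4 of its probe sets were called in that direction, with differences of -3.10 to -2.10, and 1 of them had an epithelial mean below the control percentile. Cpt1c, the isoform of neurons, was at 8.1, 8.4 and 8.5 in the epithelium, against 9.7, 10.0 and 9.6 in the mesenchyme (-1.43 ± 0.23), and the signal of the neuron and glia markers given above was higher there as well, which was not tested as a part of it.

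Among the other ketone body genes, the lactate and ketone carrier Slc16a1 was higher in the epithelium (1.53 ± 0.23), though not in the mean with a dim second probe set (0.68). Aacs (0.27), Oxct2a (0.20), Bdh2 (-0.17) and Hmgcll1 (-0.43) were not called, and the signs of Oxct2a and Bdh2 depended on the scaling. So the genes around ketone bodies were split, with Bdh1, Acat1, Slc16a6 and Slc16a1 above the mesenchyme and Oxct1 below it.

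Of the nuclear receptors and coactivators, Ppara was at 9.7, 9.8 and 9.9 in the epithelium, against 7.5, 7.8 and 8.1 in the mesenchyme (limma, adjusted p = 2.99e-09), and its 3 probe sets differed by 2.00 to 3.00. All 3 had mesenchymal means below the control percentile, and the lower bound was 3.55-fold for the brightest. Esrra, an orphan receptor that works with Ppargc1a on oxidation genes, was at 11.3, 11.9 and 11.4 in the epithelium, against 9.1, 9.1 and 9.3 in the mesenchyme. Both receptors were above every mesenchymal array in each epithelial one. The coactivator Ppargc1b differed by 1.10 ± 0.23, a call that ended under spike-in centring (0.84), with array weights and without epithelium C. Pparg (0.60 ± 0.23), Ppard (-0.50 ± 0.23) and the partner receptor Rxra (-0.07 ± 0.23), whose sign depended on the scaling, were not called. Among PPAR targets of the wider list, Plin2 was called, as given above. Pdk4 (0.57), Angptl4 (-0.33), Cyp4a14 (-0.03) and Fgf21 (8.57 in both tissues), named after their values were seen, were not called.

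**Figure D5:**
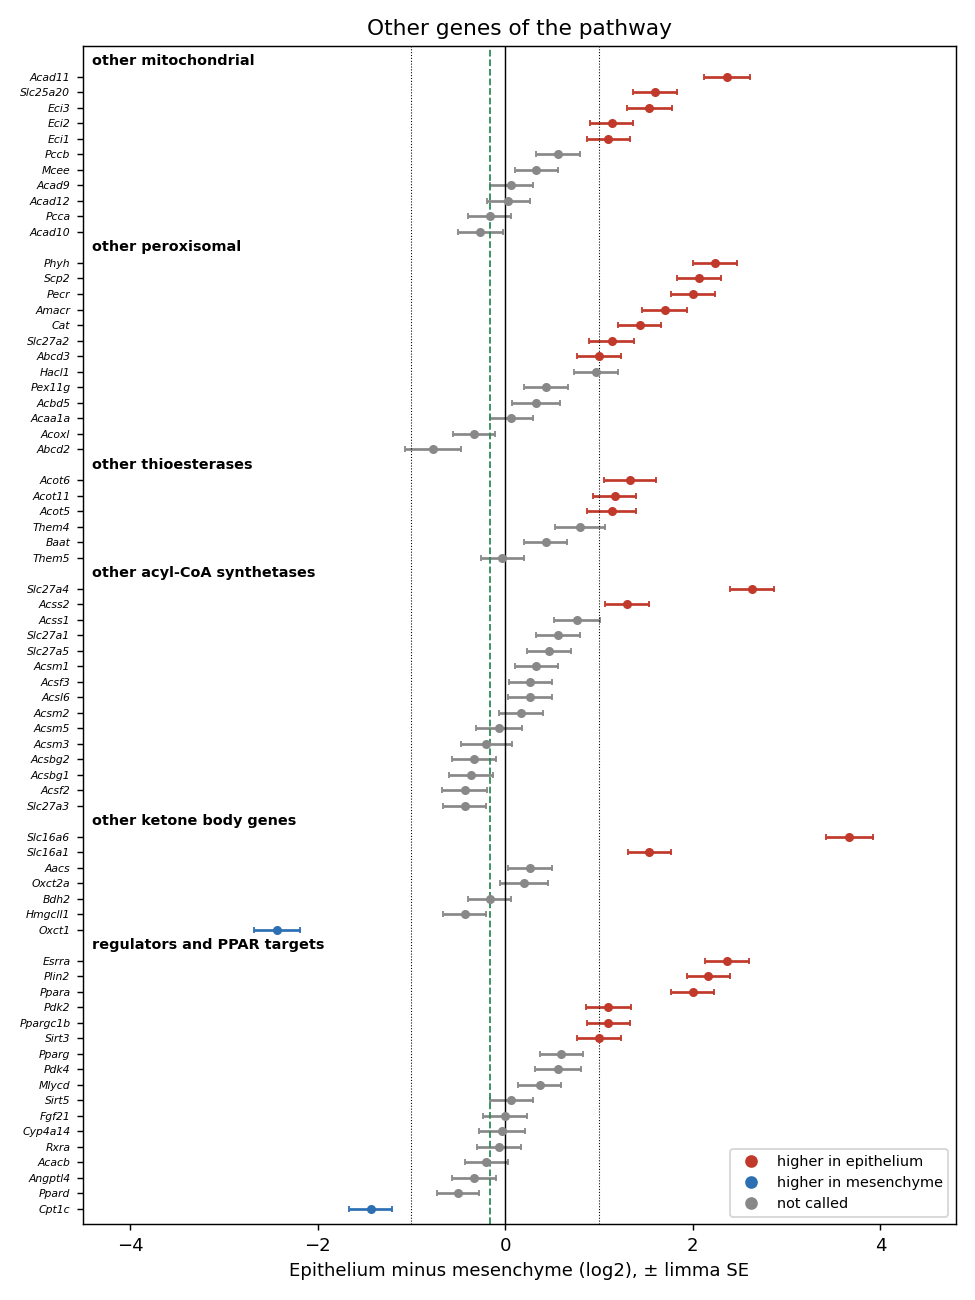
Difference between epithelium and mesenchyme (log2, horizontal axis, ± 1 limma standard error) for 69 other genes of the pathways, by class. Slc16a6 stands farthest to the right (3.67) and Oxct1 farthest to the left (-2.43), and the dashed line is the median over all genes (-0.17).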

How the data were processed

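Expression was measured on 6 arrays, 3 of epithelium and 3 of mesenchyme, grouped by the sample titles. The deposited table gives log2 values, 1 per probe set and array. RMA is named in the submitters' processing notes; its version and settings, and how arrays were scaled to each other, are not given in the sources used here. All log2 values were multiples of 0.1, ran from 4.6 to 15.2 and had array medians of 8.1 to 8.7, so the arrays did not share a distribution. Within a tissue, 5.14% to 12.7% of probe sets were identical in a pair of arrays. Precision is limited by the small number of arrays. The p-values rest on the spread between pools that had been selected by RT-PCR. In limma that spread was drawn largely from all probe sets (31.7 prior degrees of freedom) and less from each probe set's own arrays (4 residual).

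The array has 45101 probe sets, 64 of them controls. After removal of these, limma (version 3.58.1, R 4.3.3; lmFit, eBayes, no covariate, 4 residual and 31.7 prior degrees of freedom) compared the tissues over 45037. A gene was represented by its brightest probe set with 1 symbol (34945 probe sets, 18193 genes; 932 probe sets had several symbols and 9160 none), and Benjamini-Hochberg adjustment ran over genes or probe sets. All listed genes are named. Of the wider list, the rule took up to 8 called genes per direction by size, every ketone body gene and every nuclear receptor and coactivator. Members and lists were chosen with earlier results of these data known. The script was tested on simulated data over 45037 probe sets. It recovered 68 of 100 log2 differences of 1.5 and 97 of 100 of 3, with 3 false calls. Alternatives were other scalings, other probe sets per gene, a filter on dim probe sets, variance and weight settings, no fold threshold, a replicate block and each array left out.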

Additional observations from a re-analysis of the deposited data

How the results depend on the processing

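The calls were recomputed under 19 alternatives for the 40 genes. No difference changed sign, and 19 of the 31 called genes (Cpt1a, Cpt2, Acadl, Hadh, Hadha, Hadhb, Acaa2, Ehhadh, Acaa1b, Acot1, Acot3, Acot4, Acot7, Acot9, Acot13, Acsl3, Acsl4, Acsl5 and Bdh1) kept their call under every one. The other 12 lost it under at least 1, and 8 of the 9 uncalled genes gained one under at least 1. Not every alternative could end a call. Leaving out the fold threshold could only add calls, and it added 7. Averaging probe sets or choosing others left the differences of genes with 1 probe set as they were. The lower bounds were applied in no alternative, and that of Acaa1b was 1.28-fold.

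Centring on spike-in controls left 18 genes of the list and 16 of the wider list higher in the epithelium. With mesenchyme B also left out, an alternative added after seeing the data, the counts were 27 and 24. No other array was left out under this centring. The median difference of the list was 1.53 with equal array medians and 1.55 with centring on ribosomal protein genes. With a replicate block for the letters A, B and C, 28 genes were higher in the epithelium and 3 in the mesenchyme, as without it. Arrays of the same letter correlated at -0.31, -0.15 and 0.12 in their deviations from the tissue means, so the letters were not taken as pairs. The estimate of array weights stopped before it converged.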
